A study of Mus musculus with 13 samples.

Results

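The genes described here are 10 immediate early genes of mouse microglia: Jun, Junb, Jund, Fos, Fosb, Egr1, Atf3, Ier2, Klf2 and Dusp1. They were chosen by name, by their textbook class, out of 17727 genes common to the 13 deposited plate tables. The cells came from male C57BL/6J mice on standard chow (NC) or on high-fat diet (HFD) for 1 day, 3 days, 1 week, 4 weeks, 9 weeks or 16 weeks. Single hypothalamic CD45lo CD11b+ cells were sorted by FACS into multiwell plates and sequenced by CEL-Seq2, which counts the 3′ ends of transcripts by unique molecular identifiers (UMIs). Of 2496 wells, 1617 held at least 1500 transcripts and were used. They make 68 sums, each over the 7 to 76 cells of 1 replicate identifier, 1 diet and 1 plate: 28 sums of NC (722 cells), 6 of 1 day (161), 6 of 3 days (121), 7 of 1 week (172), 5 of 4 weeks (128), 6 of 9 weeks (82) and 10 of 16 weeks (231). The sample labels name brain as the tissue and 3 days as the length of HFD, while the lengths used here come from the deposited table of wells and the hypothalamic origin from the study's methods. The labels do not state the age of the mice or what the weeks in some well names stand for, and they do not state whether each replicate identifier is 1 mouse, so p-values measure the spread between these sums.

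Immediate early genes are switched on within minutes of a stimulus, without new protein synthesis, by kinases that act on factors already bound to their promoters. Jun, Junb and Jund pair with Fos or Fosb to form the AP-1 transcription factor, Egr1 is a zinc finger factor, Atf3 is a stress-induced factor of the ATF family, Klf2 is a Krüppel-like factor, Ier2 is a small early response protein, and Dusp1 is the phosphatase that switches the kinases off again. In microglia they are known both as part of the response to activating signals and as genes that rise when brain tissue is taken apart to free the cells.

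The upstream promoter sequences of Jun, Junb and Fos are shown because these genes differ most between plates in CPM. Each is the 250 bases before the RefSeq start on the gene's own strand in build GRCm38.p6, at chr4:95052223-95052472 for Jun, chr8:84978749-84978998 for Junb and chr12:85473640-85473889 for Fos. Capitals mark a match to TGACNTCA (the ATF/CREB or AP-1 like element), TGACTCA (the AP-1 element), the CArG box or TATAAA.
Jun: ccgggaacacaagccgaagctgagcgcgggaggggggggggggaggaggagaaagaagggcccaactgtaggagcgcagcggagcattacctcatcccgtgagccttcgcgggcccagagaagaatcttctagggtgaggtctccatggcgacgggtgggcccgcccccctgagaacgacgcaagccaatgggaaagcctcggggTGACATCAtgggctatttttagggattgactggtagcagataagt
Junb: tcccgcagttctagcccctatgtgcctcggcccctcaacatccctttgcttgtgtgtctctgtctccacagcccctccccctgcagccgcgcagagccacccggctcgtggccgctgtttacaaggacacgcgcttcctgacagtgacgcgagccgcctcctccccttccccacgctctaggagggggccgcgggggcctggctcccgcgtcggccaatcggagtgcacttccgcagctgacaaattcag
Fos: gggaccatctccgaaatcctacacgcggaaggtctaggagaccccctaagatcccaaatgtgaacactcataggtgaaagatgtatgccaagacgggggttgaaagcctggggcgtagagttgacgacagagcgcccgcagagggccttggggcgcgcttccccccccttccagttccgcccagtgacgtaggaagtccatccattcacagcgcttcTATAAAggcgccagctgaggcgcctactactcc
Jun held TGACATCA from 45 to 38 bases before the start. Fos held TATAAA from 33 to 28 bases before the start. Junb held none of these letters in this window. Promoter windows were found for 8 of the 10 members, and not for Egr1 and Ier2. On either strand, TGACNTCA was in 2 of the 8 windows (Jun and Dusp1) and in 7.49% of 32851 windows of the same length. The full element TGACGTCA, a special case of TGACNTCA, was in Dusp1 and in 1.55% of all windows. TGACTCA was in none of the 8 and in 4.46% of all windows, the CArG box in none and in 1.47%, and TATAAA in Fos and in 12.4%. These are matches of letters and not binding sites.

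In GENCODE M21 (GRCm38), Jun lies at chr4:95049034-95052222 on the minus strand and has 1 exon, Junb at chr8:84974484-84978718 on the minus strand, Jund at chr8:70698949-70700616 on the plus strand with 1 exon, and Fos at chr12:85473890-85477273 on the plus strand with 4 exons in its longest transcript. Jun overlaps Junos, Junb overlaps Prdx2 and Jund overlaps Gm11175, each on the other strand. Whether reads were counted by strand is not given in the sources used here, so reads of such neighbours could not be told apart.

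The summed depth ran from 22774 to 219199 transcripts per sum, with a median of 65243. A single count in a sum is worth 4.56 to 43.9 CPM (counts scaled to the same total of transcripts in each sum), and the limit that a count of 0 allows (3 counts) is 13.7 to 132 CPM. Intervals and limits cover counting error only. The 9 microglial marker genes together stood between 22618 and 38812 CPM in every sum. Neutrophil S100a9 was at 0 in the median sum and reached 12948 CPM in 1 sum of plate 5, and border macrophage markers had a median of 24.8 CPM. Border macrophage markers reached 423 CPM, and monocyte markers had a median of 14.8 CPM and reached 1078 CPM. The median percent of mitochondrial transcripts per plate ran from 1.69 on plate 12 to 3.22 on plate 1 and 3.14 on plate 2, which were also the plates highest in the members; its part in their level was not tested. On plates 1 to 3 and 6 to 12 the wells of each diet filled 1 side of the plate by barcode number, so diet and position on the plate cannot be told apart there. In summed cells, fewer cells that express a gene and less RNA per cell cannot be told apart.

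The largest differences in these genes lay between plates of the same diet. In NC cells the 10 members together reached 4535 CPM on plate 1 and 2934 CPM on plate 2, against 525 CPM on plate 3 and 134 CPM in the 7 NC cells of plate 4. The other NC plates lay between, from 394 ± 107 CPM (SD, n = 4 sums) on plate 13 to 1231 ± 305 CPM (n = 3) on plate 8. The shares of single genes differed as well: Fos, the AP-1 partner of the Jun proteins, stood at 1114 CPM on plate 1, at 591 CPM on plate 2 and at 18.2 CPM on plate 3.

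**Figure D1:**
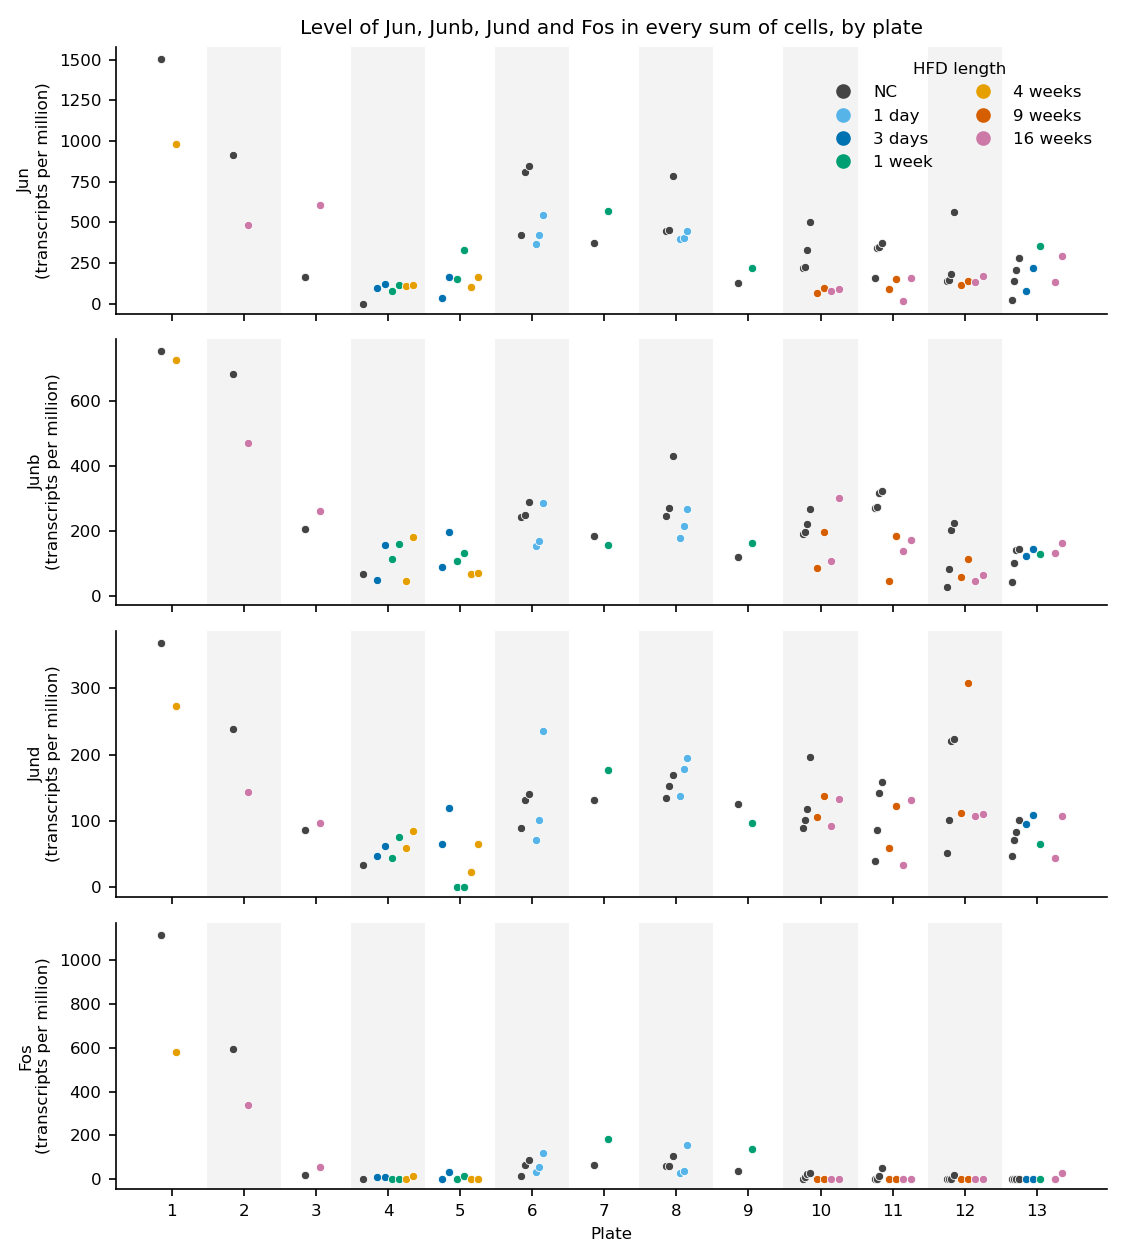
Level of Jun, Junb, Jund and Fos (CPM, vertical axis) in each of the 68 sums, placed by plate and coloured by length of HFD; each point is 1 sum. Plates 1 and 2 stand highest, with Jun at 1502 CPM in the NC sum of plate 1, and the sums of plates 4 and 5 lie at 0 to 328 CPM for Jun.

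Jun differed between plates within NC cells beyond the spread of the replicates of a plate. The test compared 22 NC sums on the 6 plates with at least 2 of them. Jun averaged 693 ± 235 CPM (SD, n = 3) on plate 6, 560 ± 193 (n = 3) on plate 8, 321 ± 131 (n = 4) on plate 10, 306 ± 99.6 (n = 4) on plate 11, 258 ± 204 (n = 4) on plate 12 and 164 ± 108 (n = 4) on plate 13. Jun passed edgeR's quasi-likelihood test with a Benjamini-Hochberg adjusted p of 0.000154. Plates 10, 11 and 12 hold the same 4 NC replicates, which therefore enter 3 times, while plates 6, 8 and 13 hold other replicates, so that plate and replicates cannot be told apart between those plates and the rest.

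Junb followed with an adjusted p of 0.0349 by edgeR. Its NC means ran from 106 ± 47.3 CPM (n = 4) on plate 13 to 315 ± 100 CPM (n = 3) on plate 8, with 296 ± 28.1 CPM (n = 4) on plate 11. Jund, the member of the family that is expressed most evenly across resting tissues, had an adjusted p of 0.649 and NC means from 75.6 ± 22.9 CPM on plate 13 to 152 ± 17.0 CPM on plate 8. So 2 of the 3 members tested were called, beside 107 of 1451 genes, or 7.37% of all genes tested. With wells of at least 2500 transcripts Junb alone was called, and Jun had an adjusted p of 0.284 by edgeR. By DESeq2 Jun alone was called, with an adjusted p of 0.0425 and 0.0537 for Junb. With no filter on low counts, Fos was called too, with an adjusted p of 0.0494 by edgeR, for 3 of 10 members beside 0.544% of genes.

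Replicates spread over several plates allow the plate to be read within 1 identifier. L3 (NC) and L4 (16 weeks) were both sorted onto plates 2 and 3. In L3, Jun was at 911 CPM on plate 2 and at 164 CPM on plate 3, a ratio of 5.55 (95% counting interval 3.87 to 8.15). Fos fell further between the same plates, with 124 counts against 4, a ratio of 32.4 (12.3 to 121). Junb had a ratio of 3.32 (2.36 to 4.75) and Jund of 2.75 (1.59 to 4.94). The 10 members together stood 5.59 times higher on plate 2 (4.57 to 6.88).

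In L4 the plates differed less and not in 1 direction. Jun was at 484 CPM on plate 2 and 604 CPM on plate 3, a ratio of 0.802 (0.598 to 1.07). Fos was at 340.5 against 57.9 CPM, a ratio of 5.88 (3.12 to 12.0), and Junb at 472 against 261 CPM, a ratio of 1.81 (1.26 to 2.61). Ier2 was at 89.6 CPM on plate 2 and had no count on plate 3. The 10 members together stood 1.42 times higher on plate 2 (1.20 to 1.69). The diet of the wells on each side of plates 2 and 3 rests on the deposited table of wells alone, and whether the sides of a plate could have been exchanged was not tested.

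**Figure D2:**
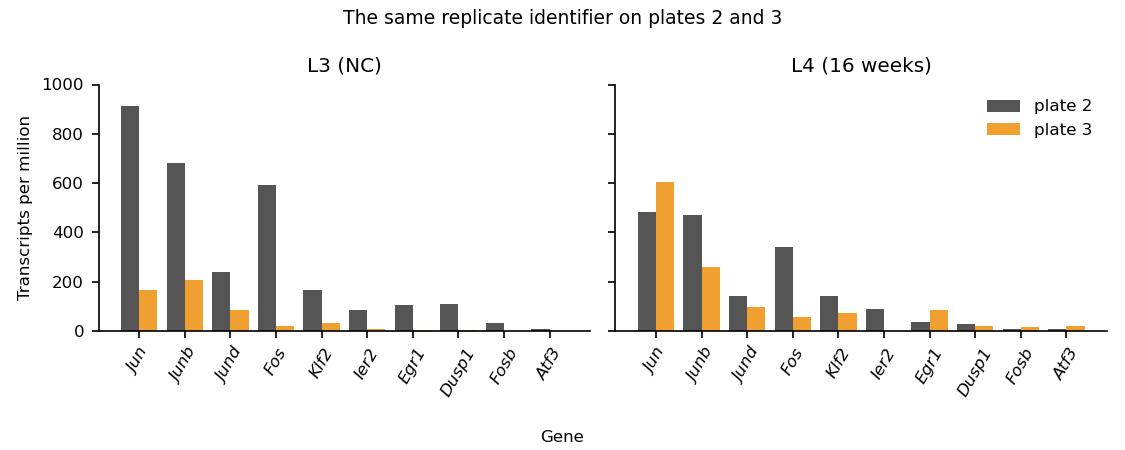
Level of each member (CPM, vertical axis, linear from 0) on plate 2 (grey bars) and plate 3 (orange bars) for L3 (NC, left) and L4 (16 weeks, right); each bar is 1 sum and has no error bar. In L3 each gene stands higher on plate 2, with Fos at 591 against 18.2 CPM, while in L4 Jun stands at 484 against 604 CPM.

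With the replicate as a term, in a fit chosen after the values were seen, 5 of the 7 members tested differed between plates 2 and 3 by edgeR at an adjusted p under the threshold, beside 20 of 4365 genes (0.458%). These were Fos, Junb, Ier2, Jun and Klf2, with adjusted p of 6.43e-24, 2.07e-06, 0.000467, 0.000969 and 0.00791, and those not called were Jund (0.147) and Egr1 (0.861). The fit rests on 4 sums and 1 residual degree of freedom, and the Jun difference had opposite directions in L3 and L4. On NC replicates that lie on several plates, 3 of 6 members were called (Fos, Jun and Junb) beside 0.704% of 3125 genes. On replicates of all diets that lie on several plates, Fos and Junb were called (adjusted p = 0.00377 and 0.0114 by edgeR) and Jun was not (0.441), beside 2.39% of 2849 genes. On plates 10 to 12 alone, which share their 8 replicates, Junb was called (adjusted p = 0.0454) and Jun was not (adjusted p = 0.993), beside 9.52% of 998 genes. No member passed the filter on plates 4 and 5.

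Against this spread, each length of HFD was compared with NC within plates. Of the 10 members, 5 passed the filter on low counts (Jun, Junb, Jund, Fos and Egr1) and Fosb, Atf3, Ier2, Klf2 and Dusp1 did not. No member and none of the 2336 genes (0%) was called by edgeR at any of the 6 lengths, or in the test that any length differed. The counts of genes with an unadjusted p under 0.05 were 114 at 1 day, 109 at 3 days, 98 at 1 week, 96 at 4 weeks, 148 at 9 weeks and 111 at 16 weeks, and DESeq2 called 1 gene at 9 weeks, no member, and none at the other lengths. Among the members an unadjusted p under 0.05 was found for 3 at 9 weeks (1 of them Fos, with 0 counts in each 9-week sum), for 1 each at 3 days (Egr1, with 0 counts in each 3-day sum), 1 week and 16 weeks, and for none at 1 day and 4 weeks. The median log2 fold change over all genes lay between -0.01 and 0.01 at each length.

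**Figure D3:**
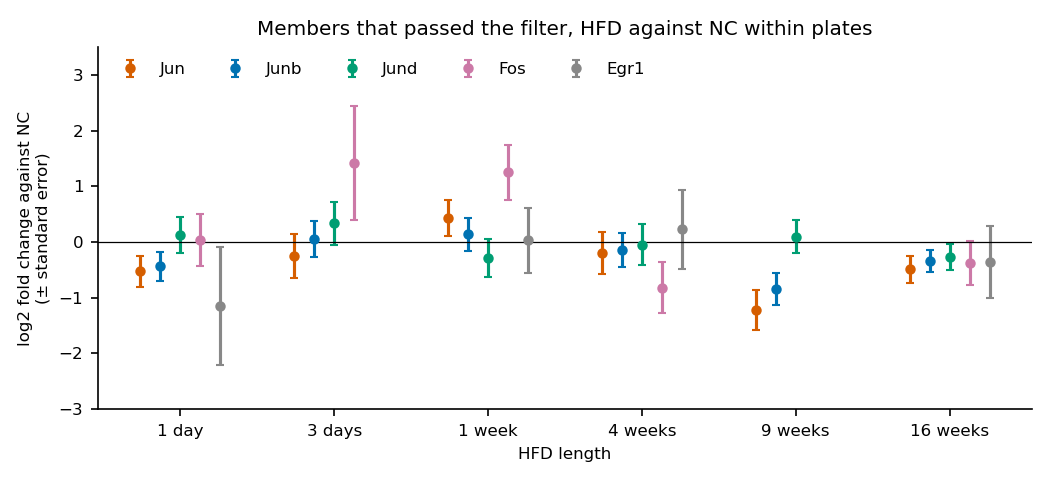
Log2 fold change against NC within plates (vertical axis) for the 5 members that passed the filter, by length of HFD. Bars are ± standard error, derived from the F of the test. Each point is the fitted value over the sums of that length. Fos at 9 weeks and Egr1 at 3 days and 9 weeks are not drawn, because each HFD sum had 0 counts there. Jun at 9 weeks stands lowest, at -1.22.

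The member with the smallest p was Jun at 9 weeks. Jun encodes the c-Jun subunit of AP-1. The 9-week cells came from 2 replicates (M7 and M8), each on plates 10, 11 and 12, beside 4 NC replicates (M1 to M4) and 2 16-week replicates (M5 and M6) of the same plates. On plate 10, Jun was at 63.9 and 98.0 CPM in the 9-week sums and at 222, 229, 328 and 504 CPM in the NC sums. On plate 11 it was at 91.9 and 149.97 CPM against 158, 343, 348 and 375 CPM. On plate 12 it was at 112 and 139.9 CPM against 142, 148, 180.4 and 563 CPM. So every 9-week sum lay under every NC sum of its plate, on plate 12 by a margin of less than 2 CPM, which is under the worth of 1 count there. Among 2336 genes, 3 (0.128%) were lower in this way on each of the 3 plates, Jun being the one member.

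In the fit over all lengths, Jun fell short of the threshold at 9 weeks, with a log2 fold change of -1.22 ± 0.36 (SE), an unadjusted p of 0.00105 and an adjusted p of 0.625 by edgeR. In a fit of the 9-week and NC sums of these plates only, it was called, at -1.41 ± 0.29 and an adjusted p of 0.00409 by edgeR, and was the only gene called among 1055 (0.0948%). With no filter on low counts it was called too (adjusted p = 0.0150), as 1 of 4 genes called (0.0231%). The call thus changed with the sums and genes that entered the fit. With each replicate's cells on the 3 plates summed to 1 value, chosen after its values were seen, Jun was again the 1 gene called at 9 weeks of 4297 (0.0233%), at -1.41 ± 0.29 and an adjusted p of 0.0183 by edgeR.

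The mean of Jun over the 3 plates was 98.6 CPM in M7 and 120.1 CPM in M8, against 189, 238, 331 and 422 CPM in the NC replicates. The 9-week mean was 0.371 times the NC mean, 109 ± 15.2 (SD, n = 2) against 295 ± 103 CPM (n = 4). With 2 against 4 replicates the exact permutation test cannot go below a two-sided p of 0.133, which is the value it gave. Of the 2336 genes, 181 (7.75%) had both 9-week replicate means under all 4 NC means, among them Jun, Junb and Fos, the last with 0 counts at 9 weeks.

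The 16-week cells of the same plates gave similar values. Jun was at 80.1 and 92.4 CPM on plate 10, at 17.0 and 157 CPM on plate 11 and at 133 and 173 CPM on plate 12, so it overlapped the NC sums on plate 12 only. On plate 11 the gap was under the worth of 1 count. The higher 16-week sum was at 157.3 CPM (12 counts) and the lowest NC sum at 158.1 CPM (7 counts). No member was lower at 16 weeks than every NC sum on each of the 3 plates, as 1 gene of 2336 was (0.0428%). The means over plates were 80.7 CPM in M6 and 137 CPM in M5, also under each of the 4 NC replicates (exact permutation p = 0.133, the smallest possible), as in 7.41% of the genes. With both lengths together, a grouping chosen after the values were seen, the 4 HFD replicates averaged 109 ± 24.6 CPM against 295 ± 103 CPM in the 4 NC replicates, with no overlap, and the two-sided exact permutation p was 0.0286, the smallest that 4 against 4 allow. Of the 2336 genes, 46 (1.97%) lay under all NC replicates in this way, among them Junb (125 against 216 CPM, the same exact permutation p of 0.0286) and Fos, which had 0 counts in each HFD replicate. For Jun and Junb each length alone already lay under all NC replicates. The exact permutation p of 0.0286 was thus fixed by the grouping and adds no further evidence.

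**Figure D4:**
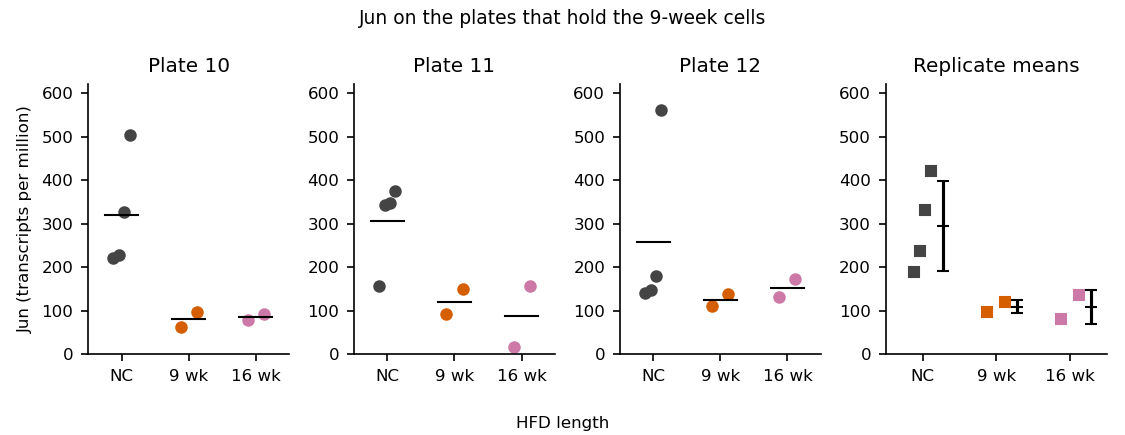
Jun (CPM, vertical axis) in NC, 9-week and 16-week sums on plates 10, 11 and 12 (circles; lines are means) and the mean of each replicate over the 3 plates (squares; bars are mean ± SD). The HFD replicate means lie between 80.7 and 137 CPM and the NC replicate means between 189 and 422 CPM.

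In a fit of plates 10 to 12 alone, Jun had a log2 fold change of -1.41 ± 0.30 at 9 weeks (adjusted p = 0.0125 by edgeR, 1 of 1134 genes called, 0.0882%) and of -1.41 ± 0.30 at 16 weeks (adjusted p = 0.0128, 4 of 1134 called, 0.353%). On 1 value per replicate, the 16-week adjusted p was 0.00863 (4 of 4297 genes, 0.0931%). With 1 replicate left out at a time, the fit of plates 10 to 12 called 0 to 1 members at 9 weeks and at 16 weeks. So some omissions ended a call and others did not, and the 16-week value of Jun ran from -1.96 to -1.05. At 9 weeks the log2 fold change was -1.27 without M7 (adjusted p = 0.191 by edgeR) and -1.58 without M8 (0.118), about as large as with both, and without M6 the 16-week value was -1.05 with an adjusted p of 0.355. Without the NC replicate M2, Jun did not pass the filter on low counts and had no test.

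Over all plates the 16-week difference of Jun was smaller, -0.49 ± 0.25 (unadjusted p = 0.0483, adjusted p = 0.977 by edgeR), and its direction differed between plates. Jun was lower at 16 weeks than in NC on plate 2 (484 against 911 CPM) and higher on plate 3 (604 against 164 CPM). Without plate 3 the fitted value was -0.98 (adjusted p = 0.148) and the test over all lengths called Jun (adjusted p = 0.0467 by edgeR). With 1 replicate left out at a time, the 16-week value over all plates ran from -1.02 to -0.16. On plate 13 the 16-week sums were at 132 and 295 CPM and the NC sums at 25.4, 143, 207 and 281 CPM, so the groups overlapped. These NC sums are of 2 kinds by the weeks in their well names. Those at 143 and 281 CPM have 24 weeks, as have the 16-week sums, and those at 25.4 and 207 CPM have 14 weeks.

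Junb, an AP-1 subunit that can restrain c-Jun, had lower values at 9 weeks too, but was called in none of the edgeR fits named here. On plate 10, Junb was at 85.2 and 196 CPM against 191 to 267 CPM in NC, on plate 11 at 45.0 and 184 CPM against 271 to 324 CPM, and on plate 12 at 55.97 and 112 CPM against 25.8 to 223 CPM. The groups were apart on plate 11 only. The log2 fold change was -0.84 ± 0.29 (unadjusted p = 0.00424, adjusted p = 0.625 by edgeR), and in the fit of 9-week and NC sums alone the adjusted p was 0.204. The replicate means over the 3 plates were 108 and 118 CPM at 9 weeks, 114 and 160.3 CPM at 16 weeks and 178 to 241 CPM in NC, without overlap, which the shares of genes given for Jun (7.75% and 7.41%) cover too.

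Jund, the third Jun protein, gave no such difference: it averaged 141 ± 53.6 CPM (n = 2) at 9 weeks, 102 ± 32.0 CPM (n = 2) at 16 weeks and 127 ± 34.4 CPM (n = 4) in NC on plates 10 to 12, and the replicates overlapped. Its log2 fold change at 9 weeks was 0.09 ± 0.30. Fos had 0 counts in all 6 9-week sums, in 310244 transcripts, and 11 counts in 762119 NC transcripts of the same plates, of which 7 were in replicate M2. Without M2, NC had 4 counts (7.44 CPM), under the limit of 9.67 CPM that 0 counts allow in the 9-week cells, so no fold is given. It had 0 counts in the 16-week cells of these plates too, in 307271 transcripts. Egr1 had 0 counts at 9 weeks and 16 in NC, 3 of them outside M2, and 12 of 13 UMIs of Egr1 in the NC replicate M2 on plate 12 came from 1 cell. The microglial markers stood at 29257 to 37513 CPM in the 9-week sums and 30594 to 37446 CPM in the NC sums of these plates, and S100a9 was at 0 in both.

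At 1 day Jun was lower than the NC mean of the plate in all 6 sums, within overlapping groups. On plate 6 it was at 370, 420.3 and 543 CPM against 422, 811 and 846 CPM in NC, and on plate 8 at 399.6, 407 and 448 CPM against 444, 454 and 782 CPM. The log2 fold change was -0.52 ± 0.28 (unadjusted p = 0.0600, adjusted p = 0.998 by edgeR). Junb was at -0.43 ± 0.26, under the NC mean in 5 of 6 sums. In wells with at least 2500 transcripts the 1-day difference of Jun turned to 0.065, and with no plate block to 0.035.

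At 1 week the values lay the other way. Jun was above the NC sums on 3 plates with both diets: 573 against 372 CPM on plate 7, 219 against 125 CPM on plate 9, and 356 CPM against 25.4 to 281 CPM on plate 13. On plate 4 it was at 79.0 and 114 CPM at 1 week and at 0 counts in the 7 NC cells, which allow up to 100.5 CPM. Plates 7 and 9 hold 1 sum per diet. On plate 13 the 1-week sum has 14 weeks in its well names, as have the NC sums at 25.4 and 207 CPM. The other NC sums there have 24 weeks. The log2 fold change was 0.43 ± 0.33 (unadjusted p = 0.193, adjusted p = 0.999). Fos was at 184 against 65.7 CPM on plate 7 and 138 against 36.9 CPM on plate 9, and at 0 in both diets on plates 4 and 13, for a log2 fold change of 1.25 ± 0.50 (unadjusted p = 0.0136, adjusted p = 0.999). With no plate block the direction of both Jun and Fos at 1 week reversed. When the 1-week and 9-week effects were compared directly, Jun differed by 1.66 on the log2 scale (unadjusted p = 0.00110, adjusted p = 0.581 by edgeR), so this difference did not pass the threshold either; of the 15 pairs of lengths none called a member.

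At 3 days and 4 weeks the fitted differences of Jun and Junb were smaller than their standard errors. Jun stood at -0.25 ± 0.40 at 3 days and -0.19 ± 0.38 at 4 weeks, and Junb at 0.05 ± 0.32 and -0.14 ± 0.31. At 3 days Jun was at 94.6 and 124 CPM on plate 4, 32.9 and 163 CPM on plate 5 (which had no NC sum) and 79.5 and 217 CPM on plate 13. Egr1 had 0 counts in all 6 3-day sums and 1 count in the NC sums of plates 4 and 13, so no fold is given. At 4 weeks the NC sum of plate 1 was higher than the 4-week sum in Jun (1502 against 978 CPM) and Fos (1114 against 582 CPM), and the 4-week sums of plate 4 were at 108 and 118 CPM for Jun against 0 counts in NC.

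The 5 members under the filter were at or near the limit of detection in most sums. Of the 68 sums, 55 had no count of Fosb, 40 none of Dusp1, 35 none of Ier2, 26 none of Atf3 and 21 none of Klf2; among the tested members Egr1 had none in 46 sums and Fos in 34, while Jun was at 0 in 1, Jund in 2 and Junb in none. Klf2, a factor linked to quiescence of endothelial and immune cells, was highest on plates 1 and 2, at 92 to 211 CPM. Dusp1 was highest in the NC sums of plates 1 and 2, at 150.1 and 109.7 CPM. Atf3 reached 181 CPM in a 4-week sum of plate 4, where 13 of 15 UMIs came from 1 cell, and 184 CPM in an NC sum of plate 8, where 6 of 15 did.

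Within single cells the plates differed in how many cells held the transcripts. Each cell was thinned to 1500 UMIs. Jun was found in 559 of 1617 cells (34.6%, exact 95% interval 32.3 to 36.9; 48.4% before thinning), Junb in 26.7%, Jund in 18.3%, Fos in 11.1%, Klf2 in 5.38%, Egr1 in 4.70%, Ier2 in 3.53%, Atf3 in 3.34%, Dusp1 in 3.09% and Fosb in 1.55%. No cell type that should lack Jun was sorted, so free RNA as a source of these UMIs was not tested. In NC cells Fos was found in 51 of 73 cells of plate 1 (69.9%, 58.0 to 80.1) and in 27 of 74 cells of plate 2 (36.5%, 25.6 to 48.5), against 1 of 66 cells of plate 3 (1.52%, 0.0384 to 8.16), 8 of 85 cells of plate 8 (9.41%, 4.15 to 17.7) and 0 of 71 cells of plate 12 (upper bound 5.06%; 1.41% before thinning). The median depth of those NC cells was 2664 transcripts on plate 1, 2629 on plate 2 and 3122 on plate 3.

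The 10 members together had a median of 6 UMIs per thinned NC cell on plate 1 and of 3 on plate 2, and of 0 or 1 on the other plates. On plate 1, 0% of NC cells had no UMI of any member and 69.9% had 5 or more, while on plate 3 43.9% had none and 0% had 5 or more. The top 10% of cells held 21.6% of the members' UMIs in NC cells of plate 1 and 50.0% in NC cells of plate 12, where 1 cell had 19. In the 9-week cells 46.7 to 56.7% of cells had no UMI of a member on plates 10 to 12, against 36.4 to 52.2% of NC cells. Jun was found in 1 of 22, 5 of 30 and 2 of 30 thinned 9-week cells of plates 10, 11 and 12 (4.55%, 16.7% and 6.67%) and in 18 of 67, 22 of 66 and 19 of 71 NC cells (26.9%, 33.3% and 26.8%). The exact 95% intervals were 0.115 to 22.8%, 5.64 to 34.7% and 0.818 to 22.1% at 9 weeks. In NC they were 16.8 to 39.1%, 22.2 to 46.0% and 16.9 to 38.6%. Before thinning the shares were 22.7%, 36.7% and 23.3% at 9 weeks and 55.2%, 56.1% and 40.8% in NC.

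**Figure D5:**
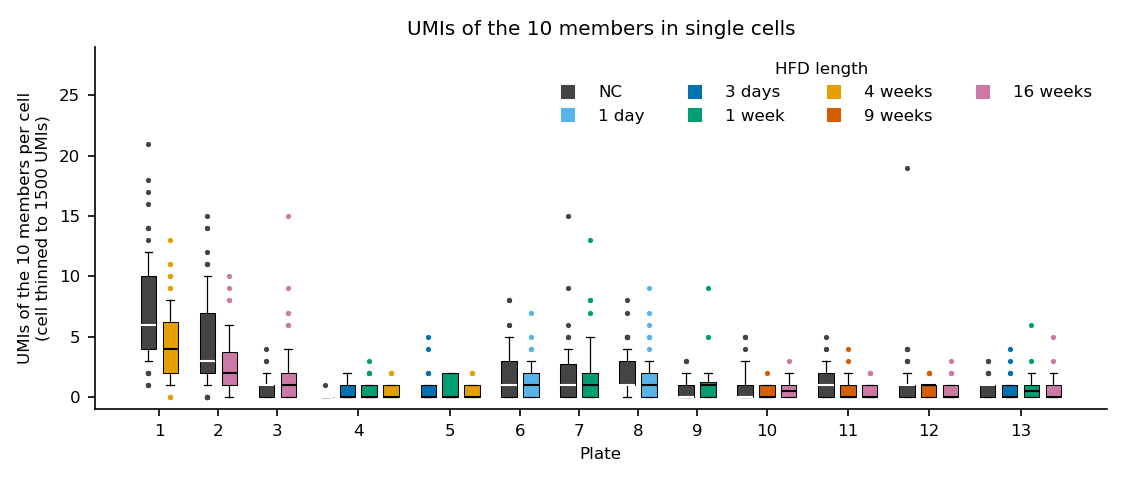
UMIs of the 10 members per cell (vertical axis) after thinning each cell to 1500 UMIs, by plate and length of HFD; boxes span the quartiles with the median line, whiskers the 10th to 90th percentile, and points the cells beyond. NC cells of plate 1 have a median of 6 UMIs and those of plate 3 a median of 1.

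Across cells of the same plate and diet the members varied together weakly. Over 1617 cells that share plates and depth, centred per plate and length, the median Pearson correlation of the 45 member pairs was 0.049 (range -0.051 to 0.174), and the median over all pairs of the 2336 genes was 0.00059, with a 99th percentile of 0.064. The highest pairs were Jun with Egr1 (0.174), Egr1 with Atf3 (0.174; 10 cells held both), Jun with Fos (0.137), Fos with Dusp1 (0.134) and Fos with Egr1 (0.125). Jun with Junb had 0.027 and Junb with Jund -0.018. Per plate the median was above 0 on 5 of the 13 plates, and without plates 1 to 3 it was 0.029. On plate 2, NC cells with Fos had a mean of 2.22 Jun UMIs against 1.15 in cells without Fos (27 and 47 cells), and on plate 1 the means were 2.59 and 2.32 (51 and 22 cells). In 16-week cells of plate 2 the means were 1.18 and 0.673 (17 and 49 cells). In 4-week cells of plate 1 they were equal, at 1.43 and 1.43 (30 and 46 cells). In counts this sparse the correlations are a description only.

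The gene outside the members whose count followed their sum most closely over the 1617 cells was Zfp36, which encodes an mRNA decay factor that is itself an early response gene (r = 0.107). Others among the highest were mt-Rnr2 (0.102), mt-Rnr1 (0.092), Malat1 (0.083), Txnip (0.082), Psmb1 (0.080), Lrrc3 (0.078), Ccl12 (0.078) and Ccnd1 (0.074), against a median of 0.00056 over 2331 genes. Zfp36 ranked 1 on plates 4 to 13 (r = 0.131) and 247 on plates 1 to 3 (r = 0.062), while mt-Rnr2 ranked 14 and 1.

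Other early genes of the same pathway were described from lists written by name. No gene of any of the 4 lists was called at any length. Of 19 other immediate early transcription factors, 2 were tested (Klf6 and Atf4). Of 20 early feedback and signalling genes, 12 were tested, and the 3 with the highest level, Rhob, Zfp36l1 and Sgk1, had log2 fold changes from -0.58 to 0.34 over the 6 lengths. Of 13 kinases and response factors upstream, 8 were tested, and of 14 chaperones and cytokines linked to dissociation, 4. At 9 weeks the log2 fold changes of these 4 ran from -0.95 (Hsp90aa1, a stress-inducible chaperone, unadjusted p = 0.0186, adjusted p = 0.660 by edgeR) to 0.36, with a median of -0.01; Hsp90ab1 was at 0.01 and Hspa8 at -0.02. At 16 weeks the log2 fold changes of the same 4 ran from -0.45 (Hsp90aa1) to -0.06, with a median of -0.32. Hsp90ab1 was at -0.33 there (unadjusted p = 0.0473, adjusted p = 0.977 by edgeR). The smallest p of the list was that of Hspa8, a constitutive chaperone, at 3 days, with a log2 fold change of -0.86 (unadjusted p = 0.00388, adjusted p = 0.989 by edgeR). Between the NC plates, where 7.37% of all genes were called, 1 of 7 upstream genes and 1 of 3 chaperones tested were called, and 0 of 11 feedback genes and 0 of 2 transcription factors. The 2 called were Mef2c, a transcription factor of the MEF2 family (adjusted p = 0.00161), at 571 ± 130 CPM on plate 10 and 1044 ± 276 CPM on plate 8, and the chaperone Hsp90ab1 (adjusted p = 0.0355), at 336 ± 74.2 and 667 ± 134 CPM.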

How the data were processed

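The authors deposited, for 13 plates, the estimated count of transcripts of each gene in each well, and a table of wells with diet, length of HFD and replicate. These estimated counts are UMI numbers corrected for chance repeats among 4096 tags, with no normalization (each gave a whole number of UMIs within 0.001). The authors trimmed, mapped and counted reads with Cutadapt, STAR and featureCounts (GRCm38/mm10). A filtered table served only to choose genes, and 447 genes outside it were left out.

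Wells with at least 1500 transcripts were kept. Counts were summed over the cells of 1 replicate, length and plate (at least 5 cells), rounded, and fitted over all genes by edgeR 4.0.16 (R 4.3.3; quasi-likelihood test, TMM, filterByExpr, Benjamini-Hochberg, threshold 0.05) with plate as a block. A replicate was taken as the start of the well name plus the replicate identifier, because some identifiers recur under other name starts. Of 44 replicates, 16 lie on several plates and enter more than once. Standard errors of edgeR fold changes were derived from the test, as the absolute log2 fold change divided by the square root of its F. Wells labelled 7 days were joined with 1 week. DESeq2 1.42.0, limma 3.58.1 (voom, replicate as a random effect), other filters and subsets were alternatives. The scripts were tested on simulated data. Thinning, correlations and exact permutation tests used Python 3.11.15 and scipy 1.17.1. Doublets were not called.

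The members and lists were chosen with earlier results of these data known. Genes named are the 10 members, the 10 others most correlated with their sum across cells (1 of which is not reported here), and, of the 4 other lists, genes called or else the 3 with the highest level. Promoters are from RefSeq (GRCm38.p6) and gene positions from GENCODE M21.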

Additional observations from a re-analysis of the deposited data

Results flagged for a closer look

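Among 23 groups of 4 NC sums on 1 plate, examined for Jun, Junb, Jund, Fos, Egr1 and the sum of the 10 members, 7 held a value far from the other 3 by Dixon's criterion. Of these, 5 are a single sum above 0 beside 3 sums with no count, which the criterion marks by construction, even for 1 count, so the usual chance rate of about 1 group in 20 does not apply to them. Jun in NC replicate M2 on plate 12 was at 563 CPM, far above the others, and Jun in M4 on plate 11 was at 158 CPM, far below. Fos was at 18.6 CPM in M3 on plate 12, where the other NC sums had no count. Egr1 was above 0 in a single NC sum of a plate, at 59.3 CPM on plate 10 and 10.9 CPM on plate 11 (both M1), at 261 CPM on plate 12 (M2) and at 41.4 CPM on plate 13 (M16).

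The 16-week difference from NC had opposite signs on plates 2 and 3, which hold the same replicates, L3 and L4. On the log2 scale it was -0.91 for Jun, -0.53 for Junb, -0.73 for Jund and -0.80 for Fos on plate 2. On plate 3 it was 1.88, 0.34, 0.16 and 1.67. The counts on plate 3 at 16 weeks and in NC were 125 and 36 for Jun and 12 and 4 for Fos. They were close for Junb (54 and 45) and Jund (20 and 19). With 1 sum per diet on each plate, the difference between the plates was not tested. Nor was an exchange of the diet sides of a plate, which would alter these values.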

How the results depend on the processing

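At 9 weeks 0 members were called, and 1 (Jun) with no filter on low counts, in a separate fit per length, on plates 10 to 12 alone and on those plates with 1 sum a replicate; at 16 weeks 1 (Jun) was called in the last pair of fits. Over all lengths 1 was called, against 0 (Jun, except by voom), with no filter, with no plate block, by voom with the replicate as a random effect (Fos), without plate 3 and on plates 10 to 12 alone in either form. Between NC plates 2 members were called, 1 by DESeq2 and 1 in wells with at least 2500 transcripts and without plate 8, 11, 12 or 13. With sums of all diets and the replicate as a term, fits chosen after the data were seen, 5 were called between plates 2 and 3, 0 between plates 4 and 5, 1 between plates 10 to 12 and 2 over all of these plates.

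The direction reversed with no plate block for Jun at 1 day (0.035) and 1 week (-0.68), Junb at 3 days (-1.05), 1 week (-0.87) and 4 weeks (0.022) and Fos at 1 week (-0.89). It reversed in wells with at least 2500 transcripts for Jun at 1 day (0.065) and Junb at 4 weeks (0.0275), without plates 1 to 3 for Jun at 4 weeks (0.27) and Junb at 3 days (-0.0126), by DESeq2 for Jun at 4 weeks (0.024), by voom for Junb at 3 days (-0.034), in a separate fit for Junb at 4 weeks (0.13), and with weeks in the block for Jun at 3 days (0.047). The cause was not tested. Of 811 alternatives for 13 fold changes, 771 kept direction and side of the threshold.

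Leaving out 1 replicate at a time left 0 members called at each length and over all lengths in the fit of all plates, and 0 to 1 at 9 weeks, 16 weeks and over all lengths in that of plates 10 to 12. In the fit of all plates Jun ran from -1.38 to -0.93 at 9 weeks, the latter without M2. At 16 weeks it ran from -1.02 (without L4) to -0.16 (without M6). Here M2 and M6 are those of plates 10 to 12. In the fit of plates 10 to 12 Jun ran from -1.58 to -1.27 at 9 weeks and from -1.96 to -1.05 at 16 weeks. In the fit of all plates it ran from -0.64 to -0.40 at 1 day, 0.35 to 0.60 at 1 week, -0.53 to 0.0108 at 3 days (without M18) and -0.36 to 0.32 at 4 weeks (0.32 without L1 and 0.30 without L2, the pair of plate 1). Junb ran from -0.047 to 0.18 at 3 days and from -0.35 to 0.0945 at 4 weeks; the -0.047 and 0.0945 are both without M21. At the depth of these sums Fosb, Atf3, Ier2, Klf2 and Dusp1 did not pass the filter on low counts in the fit by length.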
